A study of Oryza sativa Japonica Group with 16 samples.

Results

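At 7896 window positions of the rice genome, CHH methylation lay more than 50 percentage points above the wild type in every one of 4 deposited comparisons, made for 2 genotypes, *ta2* and *OxDRM2*, in CR and in LR. They were chosen by these values themselves, as windows of 1000 bp listed at the same position in the 4 tables with a difference above 50 points in each. They are 7896 of the 1108506 window positions that at least 1 table lists. Of those listed positions, 1024562 lie in the sequence that all 4 tables could reach. The 7896 windows are 0.229% of the 3454187 positions of that sequence, set 100 bp apart. CR and LR are crown and lateral root initials of stage 1, cut out of sections by laser microdissection before obvious cell differentiation. Both mutants are in the Zhonghua 11 background. *ta2* carries a point mutation that alters the splicing of *DNG702*, whose knockout is lethal, and *OxDRM2* overexpresses *DRM2* from a ubiquitin promoter, so neither change is limited to root initials. BS-seq, in which bisulfite treatment tells methylated from unmethylated cytosines, was done on 2 biological replicates per mutant and root type, 8 libraries in all.

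CHH sites are cytosines followed by bases other than G at each of the next positions. Such a site has no mirrored cytosine on the other strand, so its methylation cannot be copied after DNA replication and has to be set again. In plants, DRM2 does so at loci marked by small RNAs, many of them at short transposons beside genes, and chromomethylases do so in long transposons. DNG702 belongs to the DNA glycosylases, which cut methylated cytosines out of DNA so that unmodified ones can be put back. Deposition by DRM2 and removal by DNG702 thus act on the same mark from opposite sides.

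Each value below is the authors' deposited difference between a mutant and the wild type of the same root type, both replicates combined, and was read as higher in the mutant where it is positive. The tables hold no value per replicate, no methylation level and no cytosine count, so the depth behind a window is unknown and no error, interval or test is given. The libraries were sequenced to unequal depth by the study's own account, and the part of depth in the differences between tables was not tested. The rule used the same values, and all sizes are therefore descriptions. The table of *ta2* CR ends on chromosome 8 at 23670800, and neither the rest of that chromosome nor chromosome 9 could hold a qualifying window. The wild type libraries are not among the samples analysed here, so a difference between mutant and wild type cannot be told apart from one between sets of libraries.

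The values above 50 points were spread up to nearly complete differences. In *ta2*, the CR values of the 7896 windows ranged from 50.01 to 99.4 points, with a median of 68.0 points and an upper quartile of 78.0 points. Its LR values had a median of 73.6 points, an upper quartile of 83.5 points and a maximum of 99.3 points. In *OxDRM2*, the median for CR was 62.4 points, the upper quartile 72.4 points and the maximum 97.1 points. For LR of *OxDRM2* they were 72.0, 82.0 and 98.5 points. The lowest median thus belonged to *OxDRM2* CR and the highest to *ta2* LR, while the SD over windows was similar in the 4 tables, from 11.4 to 12.1 points. For comparison, 152585 windows, 4.42% of the positions, were listed with a gain in all 4 tables. Their medians in *ta2* were 24.8 points for CR and 29.3 points for LR, and those in *OxDRM2* were 25.3 points for CR and 29.0 points for LR. Of these, 5.17% were above 50 points throughout.

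**Figure D1:**
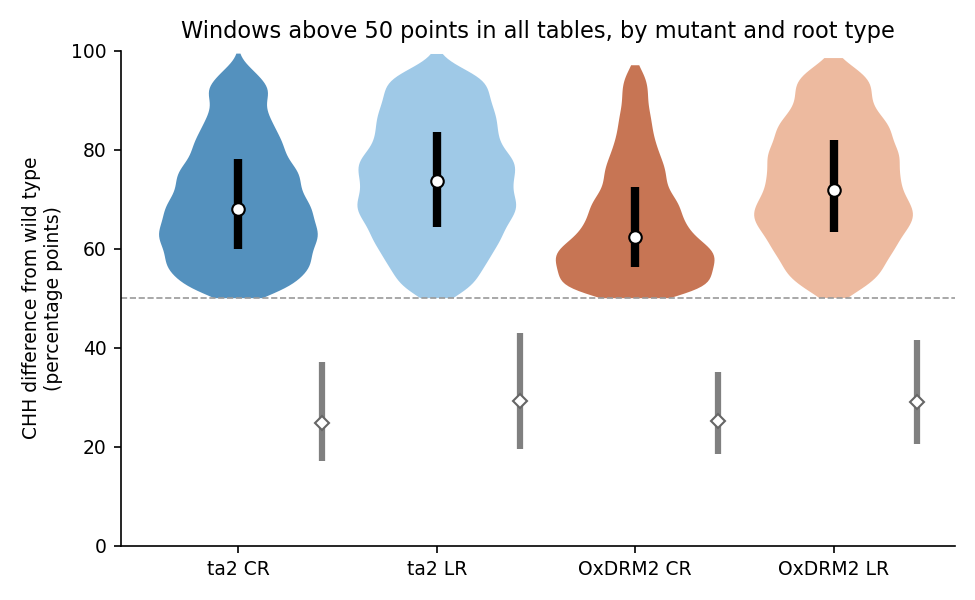
Difference in CHH methylation from the wild type in percentage points (vertical axis) for the 7896 windows above 50 points in all tables, by mutant and root type. Shapes show the distribution, white circles the median and black bars the quartiles, while grey diamonds and bars give median and quartiles of the 152585 windows with a gain in all tables. The dashed line marks 50 points, and the median is lowest in *OxDRM2* CR at 62.4 points and highest in *ta2* LR at 73.6 points.

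Windows above 50 points in any one table took a larger part of the genome, with 0.782% of positions for CR and 1.07% for LR in *ta2*, and 0.735% for CR and 1.02% for LR in *OxDRM2*. The 7896 positions made up 29.2% of the 27027 such windows in *ta2* CR and 31.1% of the 25372 in *OxDRM2* CR. In LR they made up 21.4% of the 36920 windows of *ta2* and 22.5% of the 35089 windows of *OxDRM2*. Tables of one root type share their wild type, and no meaning was read from these shares.

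The limit of 50 points cut through a continuous range. In 466 windows the lowest of the 4 values was above 50 and at most 51 points, and in 565 windows listed in all tables it was above 49 and at most 50 points. Just inside the limit, the medians of *ta2* were 56.2 points for CR and 60.3 points for LR, and those of *OxDRM2* 50.9 and 61.2 points. Just outside it, *ta2* had 54.7 and 62.1 points, and *OxDRM2* 49.95 and 59.8 points. On both sides *OxDRM2* CR had the lowest median. These windows were picked by their lowest value, so this is not a separate observation of the order. At 4125 windows, 52.2%, the lowest of the 4 values was at most 60 points. It was above 80 points at 760 windows, 9.63%, and above 90 points at 204 windows, 2.58%.

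A difference bounds the levels behind it, since a level lies between 0 and 100%. The mutant level cannot be lower than the difference, and the wild type level cannot be higher than 100% minus the difference. Taking the larger difference of each root type, the wild type could be at most 49.7% methylated at CHH sites of any of these windows in CR and at most 49.6% in LR. The rule itself holds every such bound under 50%. The median of this upper bound was 30.5% in CR and 23.4% in LR. At 631 windows the wild type of CR was bound to lie under 10%, at 1150 windows that of LR, and at 500 windows both. With the sign as read here, the bounds at these 500 windows were under 10% for the wild type and above 90% for at least 1 mutant, in each root type. The number of cytosines behind a value is unknown, so a bound need not describe all CHH sites of its window.

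By genotype, the values stood apart mainly in CR. There the same window was lower in *OxDRM2* than in *ta2* at 5482 of 7896 positions, with a median difference of -3.17 points between the tables and quartiles of -9.02 and 0.88 points. In LR, *OxDRM2* was lower at 4361 positions, with a median of -0.73 points and quartiles of -5.66 and 3.48 points, so values on both sides of 0 were common. Over all windows with a gain in every table, the medians were 0.53 points in CR and 0.17 points in LR, with *OxDRM2* higher at 52.5% and 50.8% of windows. At the strong windows *OxDRM2* was higher at 30.6% in CR and 44.8% in LR. In CR the order of the genotypes at the median of the strong windows was thus not that at the median of the gains at large. The upper quartile of the gains at large was already higher in *ta2* CR, at 37.1 points against 35.1 points in *OxDRM2* CR. Their lower quartile was lower in *ta2* CR, at 17.0 against 18.5 points. A limit of 50 points keeps only the upper part of the gains, so the contrast of medians is not a trait of the strong windows alone. In LR the median at the same window changed sign, but it was small in both sets. The median of *ta2* LR itself was above that of *OxDRM2* LR in both sets, at 29.3 against 29.0 points over the gains at large and 73.6 against 72.0 points over the strong windows. *OxDRM2* CR, the table with gains at 23.6% of all positions against 10.4% in *ta2* CR, had the smaller gain at most of these windows. Among the mutant libraries, the study lists the highest coverage for *OxDRM2* CR. The mapped ratios listed for *OxDRM2* CR, and for the first replicate of *OxDRM2* LR, do not match their listed read counts. The depth of both groups is therefore uncertain. Whether depth has a part in the many gains of *OxDRM2* CR or in its lower values was not tested.

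By root type, the differences were larger in LR for both mutants. In *ta2*, LR exceeded CR at 5369 windows, 68.0%, with a median of 3.82 points and quartiles of -1.60 and 10.1 points. In *OxDRM2*, LR exceeded CR at 6244 windows, 79.1%, with a median of 6.68 points and quartiles of 0.93 and 13.3 points. Among all windows with a gain in every table the same medians were 3.36 and 3.49 points, and LR was higher at 65.6% in *ta2* and at 65.0% in *OxDRM2*. The lead of LR in *ta2* was therefore close to that of the gains at large, while in *OxDRM2* it was wider at the strong windows. In both mutants at once, LR was above CR at 4489 windows, 56.9% against 46.2% of all windows with a gain in every table, and CR was above LR at 772 windows, 9.78%. CR and LR were compared with different wild type initials. A larger difference in LR can therefore lie in the mutant or in the wild type level. By the study's Methods, LR initials came from roots of older seedlings than those whose coleoptile internodes gave CR initials. Root type and seedling age cannot be told apart here.

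**Figure D2:**
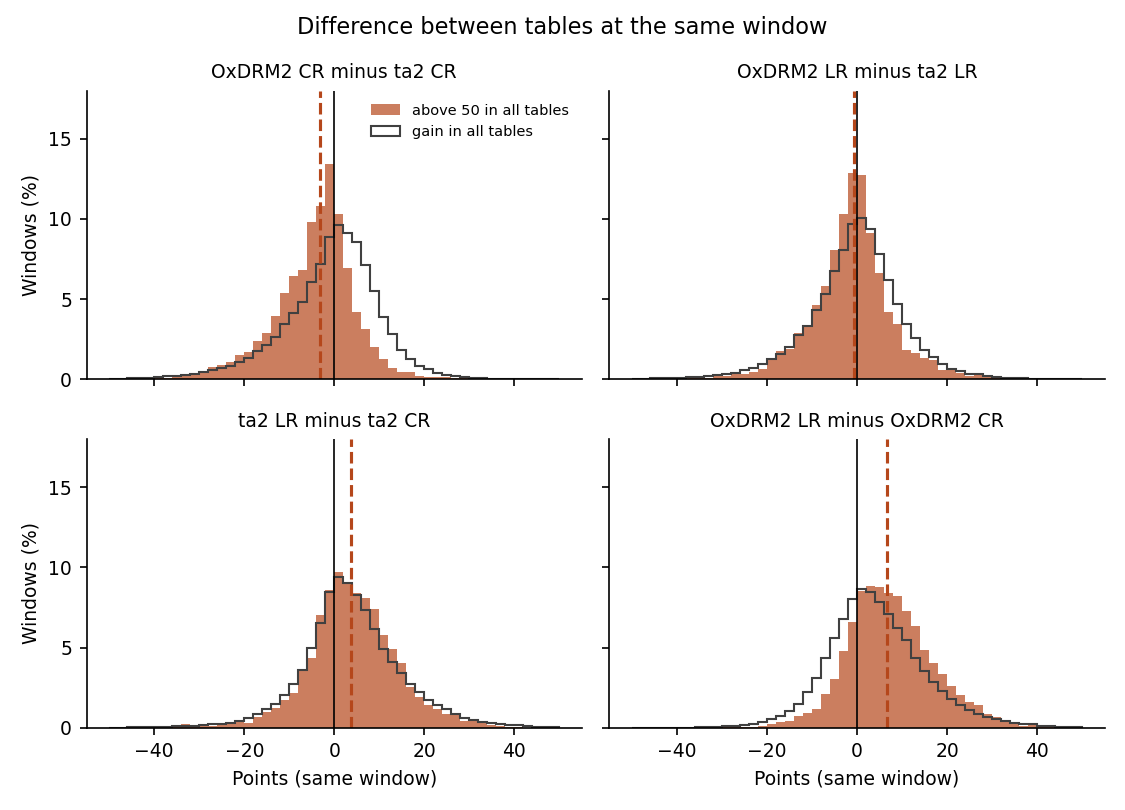
Difference between tables at the same window in percentage points (horizontal axis, bins of 2 points) against the percentage of windows (vertical axis). Filled bars show the 7896 windows above 50 points in all tables, the outline shows the 152585 windows with a gain in all tables, and the dashed line is the median of the filled bars, which lies at -3.17 points for *OxDRM2* minus *ta2* in CR and at 6.68 points for LR minus CR in *OxDRM2*.

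*OxDRM2* CR was the lowest of the 4 values at 4313 windows, 54.6%, and the highest at 508, 6.43%. The highest value was found in *ta2* LR at 3356 windows, 42.5%, and in *OxDRM2* LR at 2594 windows, 32.9%. Of all windows with a gain in every table, *OxDRM2* CR was lowest at 35.5% and highest at 21.03%. This order was the same on each of the 11 chromosomes, where the median was lowest in *OxDRM2* CR and highest in *ta2* LR 11 times of 11. The medians of *OxDRM2* CR by chromosome lay between 60.1 and 64.9 points and those of *ta2* LR between 68.8 and 76.8 points, without overlap. For *ta2* CR they reached from 64.0 to 71.5 points and for *OxDRM2* LR from 67.1 to 74.9 points. Chromosomes come from the same libraries and are not replicates.

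Within a window, the highest of the 4 values exceeded the lowest by a median of 13.6 points, with quartiles of 8.60 and 20.2 points and a maximum of 46.2 points. Since every value had to lie between 50 and 100 points, the rule holds this spread under 50 points. Where gains were larger the tables lay closer together, and the room below 100 points is smaller there. Among windows whose lowest value was at most 60 points, LR was above CR by a median of 7.77 points in *OxDRM2* and 4.46 points in *ta2*. Above 90 points these medians were 0.71 and 0.69 points, and *OxDRM2* differed from *ta2* by -0.33 points in CR and -0.06 points in LR.

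Overlapping windows share cytosines, so windows that overlapped or touched were merged, which gave 1764 regions. Together they covered 2439.9 kb, or 0.706% of the 345.4 Mb compared. The median length was 1300 bp, with quartiles of 1000 and 1800 bp, and the longest had 3300 bp. A single window made up 469 regions, 26.6%. Counted by region, *OxDRM2* CR had the lowest mean in 977 regions, 55.4%, and *ta2* LR the highest in 776 regions, 44.0%. *OxDRM2* was above *ta2* in 528 regions in CR and in 770 in LR, while LR was above CR in 1227 regions in *ta2* and in 1409 in *OxDRM2*. The means of the 4 tables lay within 5 points of each other in 129 regions, 7.31%, and over 20 points apart in 478 regions, 27.1%.

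The lengths were not spread evenly. After the single windows of 1000 bp, the most frequent length was 1900 bp, with 255 regions, against 113 regions of 1800 bp and 52 of 2000 bp. Of those with 1900 bp, 178 regions consisted of 10 windows in a row. With starts 100 bp apart, 10 such windows have exactly 100 bp in common, and no other window contains all of that stretch. These 178 regions held 1780 of the 7896 windows, 22.5%. In 1690 of all 1764 regions, 95.8%, every window contained one common stretch of at least 100 bp, while 22 regions were longer than 2000 bp, a length at which the outer windows no longer touch.

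**Figure D3:**
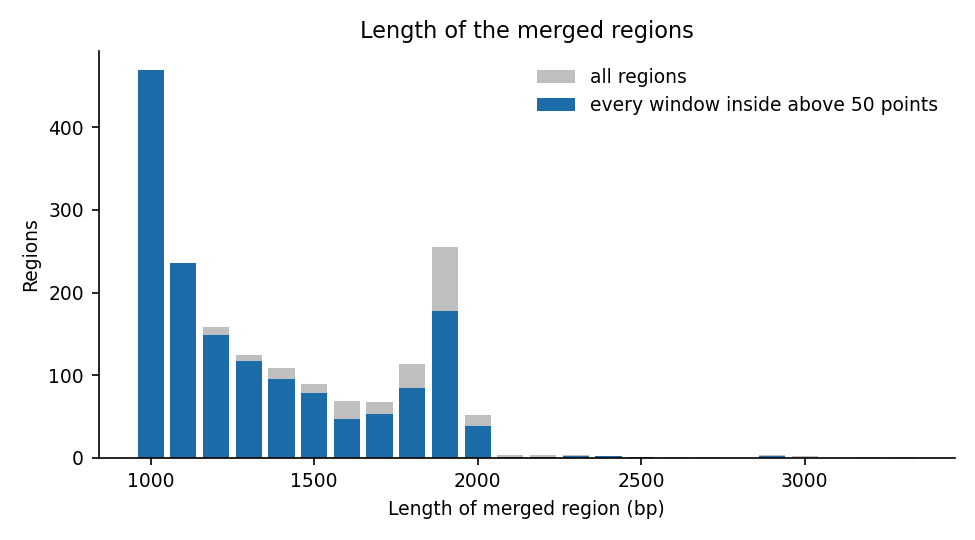
Number of merged regions (vertical axis) by length in bp (horizontal axis, steps of 100 bp). Grey bars count all 1764 regions and blue bars those in which every window inside was above 50 points in all tables, and the bar at 1900 bp, with 255 regions of which 178 hold 10 windows in a row, stands above its neighbours at 1800 and 2000 bp.

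The edges of these 178 regions were steep. Their outermost windows had medians of 71.6 points for CR and 78.2 points for LR in *ta2*, and of 65.7 points for CR and 75.6 points for LR in *OxDRM2*. Of the 356 next windows, shifted by 100 bp and without the common stretch, 244 were not listed at all in *ta2* CR and 239 in *ta2* LR. In *OxDRM2*, 182 of them were not listed in CR and 230 in LR. The rule required only that 1 of the 4 values be 50 points or less there, and a window that is not listed had a difference under 10 points, missed the q-value limit or was not measured. Inside, the highest and lowest of the 10 windows differed by medians of 9.23 points for CR and 8.78 points for LR in *ta2*, and of 10.4 and 8.88 points in *OxDRM2*. Where every mean was above 80 points, which held for 25 of the 178, the fall was sharper. In these, the outermost windows had a median of 92.1 points in *ta2* CR, and 43 of the 50 next windows were not listed. For LR of *ta2* this number was 46, and *OxDRM2* had 39 for CR and 43 for LR.

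Around the 1764 regions, the share of windows with a listed gain came close to that over all positions within a few kb. Windows that began 2000 bp beyond the outermost window, with no base in common with the region, were listed with a gain in 11.4% of cases in *ta2* CR, against 10.4% of all positions. For LR of *ta2* these shares were 10.6% and 9.67%. In *OxDRM2* they were 26.2% and 23.6% for CR, and 14.5% and 12.6% for LR. Gains above 50 points were found 2000 bp away in 1.33% of cases in *ta2* CR, against 0.782% of all positions, and in 1.93% against 1.07% in *ta2* LR. In *OxDRM2* the same shares were 1.08% against 0.735% in CR and 1.79% against 1.02% in LR. At 5000 bp gains of any size were at 10.4% for CR and 9.99% for LR in *ta2*, and at 24.5% and 12.8% in *OxDRM2*. Windows 1000 bp away, the nearest without a common base, were above 50 points in 0.738% of cases for CR and 0.993% for LR in *ta2*, and in 0.681% and 1.08% in *OxDRM2*, under the share of all positions except for *OxDRM2* LR. A window that touches a region is merged into it where all 4 values are above 50 points, so the rule lowers the share there. At 5000 bp gains above 50 points were at 0.993% for CR and 1.19% for LR in *ta2*, and at 1.08% and 1.19% in *OxDRM2*. These are shares of positions beside chosen regions and were not tested.

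**Figure D4:**
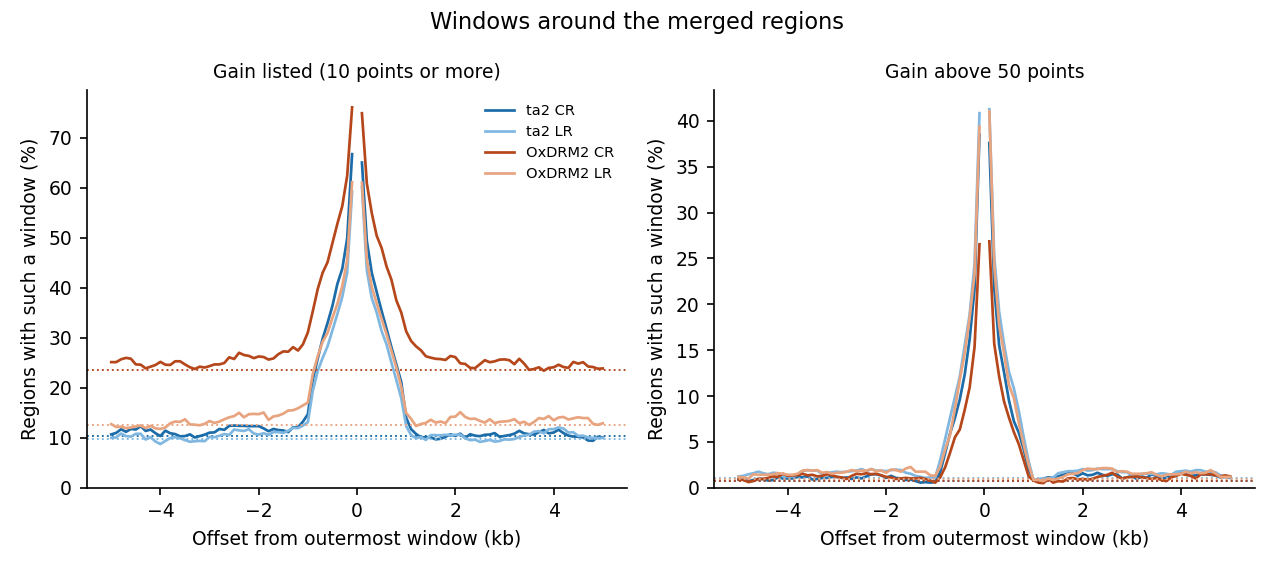
Percentage of merged regions (vertical axis) with a listed gain (left) or a gain above 50 points (right) in a window at the given offset from the outermost window, in kb (horizontal axis), for each table. Dotted lines give the percentage of all window positions, and the curves fall steeply up to 1 kb, beyond which windows share no base with the region.

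The regions were scattered over all 11 chromosomes compared. From one region to the next the median gap was 117.3 kb, with quartiles of 43.9 and 274.7 kb, and 252 regions, 14.3%, had a neighbour within 10 kb. Of 351 bins of 1 Mb, 343 held at least 1 of the windows, with a median of 18 windows per bin. Chromosome 6 held the most, 1121 windows in 209 regions, which were 0.359% of its positions and 7.87% of its windows with a gain in every table. The fewest, 424 windows in 100 regions, were on the part of chromosome 8 that was compared. As a share, chromosome 3 was lowest with 525 windows in 146 regions, 0.144% of positions and 3.10% of its common gains, and chromosome 2 followed with 522 windows, 0.145% and 3.19%. The remaining chromosomes lay between 0.179% of positions on chromosome 8 and 0.272% on chromosome 12. Read against the common gains, the share was 6.36% on chromosome 4, 6.35% on chromosome 12 and 6.10% on chromosome 11. Chromosome 1, the longest, had 1045 windows and 5.07%.

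**Figure D5:**
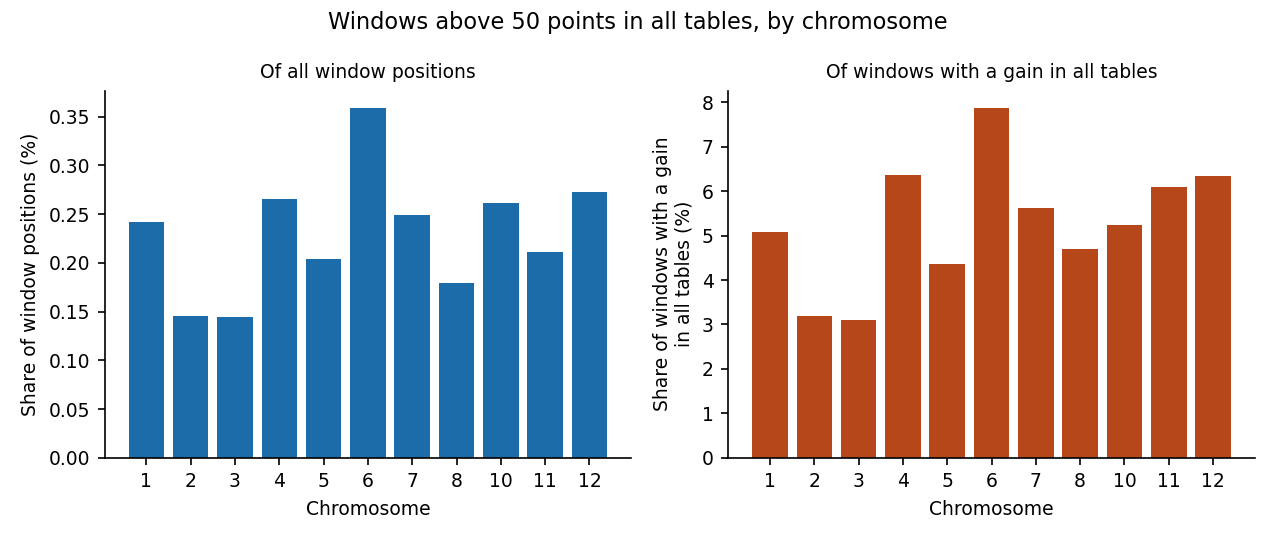
Windows above 50 points in all tables as a percentage of all window positions of a chromosome (left) and of its windows with a gain in all tables (right), for the 11 chromosomes compared. Chromosome 6 is highest in both panels at 0.359% and 7.87%, and chromosomes 2 and 3 are lowest.

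The 20 fullest of the bins of 1 Mb held 1434 windows, 18.2%, so most windows lay elsewhere. The stretches described next were picked after the counts were seen. The fullest bin of 1 Mb lay between 1 and 2 Mb of chromosome 4, with 113 windows in 14 regions. Of these 20 bins, 10 were on chromosome 6, all between 11 and 21 Mb. That stretch held 716 windows in 117 regions, 63.9% of all windows of chromosome 6, and 16.7% of its 4297 windows with a gain in every table were above 50 points throughout. The first 3 Mb of chromosome 4 held 234 windows in 35 regions, 24.8% of that chromosome's windows and 22.6% of the 1037 common gains there. In both stretches the share was thus several times the 5.17% found over all chromosomes. Regions with every mean above 80 points numbered 80 of all 1764. They were 17 of 209 regions on chromosome 6, 16 of 194 on chromosome 4 and 13 of 157 on chromosome 7. On chromosome 3 they were 0 of 146.

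In the 10 strongest regions of at least 3 windows, ranked by the lowest of the 4 means, all means lay between 91.7 and 97.5 points. First was chromosome 4 from 1456601 to 1458500 of RGAP version 7.0, whose 10 windows had means of 95.4 points for CR and 95.2 points for LR in *ta2*, and of 95.3 points for CR and 94.3 points for LR in *OxDRM2*. The stretch common to its windows is chromosome 4 from 1457501 to 1457600. The 4 means lay within 1.13 points of each other, the closest among the 10, and left at most 4.57% for the wild type in CR and 4.84% in LR. Nearby on chromosome 4, the region from 1385001 to 1386900 had means of 93.5, 95.1, 92.9 and 93.5 points, where CR and LR of *ta2* come first and CR and LR of *OxDRM2* follow, an order kept below. The one from 1499301 to 1500900 had 96.0, 92.0, 96.9 and 94.2 points, with both CR values above both LR values. All 3 lie in the fullest bin.

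Chromosome 6 also gave 3 of the 10, within the stretch from 11 to 21 Mb. From 14471501 to 14473400 the means were 95.9, 93.1, 95.4 and 93.0 points, and from 14457401 to 14459300 they were 94.0, 93.1, 94.9 and 92.6 points. In both of these, 12.2 kb apart, both CR values lay above both LR values, the less frequent order. The region from 15082501 to 15084500 had 94.0, 94.6, 92.7 and 94.0 points over 7 windows, and is the only one of the 10 whose windows have no stretch in common.

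The other 4 lay on chromosomes 2, 7 and 11. On chromosome 11 from 24435001 to 24436900 the means were 94.4, 97.5, 93.7 and 94.4 points, and its bound for the wild type of LR, 2.46%, was the lowest among the 10. On chromosome 7, the region from 4788801 to 4790100 had 96.1, 95.9, 93.1 and 96.3 points over 4 windows, and that from 14165801 to 14167700 had 92.9, 91.7, 92.1 and 94.9 points. *OxDRM2* LR was the highest in both. Chromosome 2 from 24297001 to 24298900 had 92.8, 93.8, 92.7 and 93.4 points, which lay within 1.14 points. Of the 10 regions, 7 were runs of 10 windows over 1900 bp, and the wild type was bound to at most 7.21% in CR and 6.92% in LR in each of them. What sequence lies in these stretches was not analysed here.

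The 10 longest regions, 2600 to 3300 bp, had means from 56.4 to 88.2 points. Over all 1764 regions the medians of these means were 65.2 points for CR and 71.0 points for LR in *ta2*, and 60.2 and 69.0 points in *OxDRM2*. The longest, on chromosome 10 from 2166301 to 2169600, held 16 windows with means of 71.1, 78.9, 68.6 and 74.6 points. On the same chromosome, the region from 3570201 to 3573200 had 77.5, 81.5, 67.7 and 77.7 points over 18 windows, and that from 23130801 to 23133700 had 74.0, 79.98, 69.5 and 80.1 points over 20 windows. *OxDRM2* CR was lowest in each of these, and in 8 of the 10. Chromosome 8 from 6896001 to 6899200, with 20 windows, had means of 79.4, 70.1, 64.2 and 76.2 points, so that CR exceeded LR in *ta2* and LR exceeded CR in *OxDRM2*. Chromosome 11 from 27868101 to 27871000 was the strongest of the long regions, with 78.5, 87.3, 85.5 and 88.2 points over 20 windows, and there *ta2* CR was lowest.

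Of the remaining long regions, chromosome 6 from 5549601 to 5552600 had 60.6, 62.2, 58.2 and 60.9 points over 15 windows, and chromosome 1 from 30227101 to 30230000 had 60.3, 68.7, 59.0 and 65.8 points over 14 windows. Chromosome 5 from 29928001 to 29930900 had 62.6, 67.4, 56.5 and 82.7 points over 6 windows. With *OxDRM2* LR 26.2 points above *OxDRM2* CR, it had the widest spread among the 10. Chromosome 12 from 7349101 to 7351800 had 58.8, 73.1, 62.7 and 70.6 points, and both LR values exceeded both CR values. Chromosome 11 from 5417901 to 5420500 had 62.8, 59.9, 56.4 and 57.4 points, and both *ta2* values exceeded both *OxDRM2* values.

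The extremes show how far genotype and root type could part while each value stayed above 50 points. The largest lead of *OxDRM2* was on chromosome 3 from 28736701 to 28738100, with 60.9, 54.5, 95.3 and 80.8 points, a mean of 30.4 points over *ta2*. The largest lead of *ta2* was in a single window on chromosome 6 from 27102201 to 27103200, with 93.3, 83.1, 55.4 and 52.6 points. Both mutants of a root type were set against the same wild type, and differences between their libraries, in depth or otherwise, cannot be told apart from those between genotypes. LR led most in a single window on chromosome 7 from 400601 to 401600, with 55.6, 93.2, 54.1 and 91.6 points. There both mutants gave close values within a root type, and the bound on the wild type was 44.4% in CR and 6.79% in LR. CR led most on chromosome 7 from 18028401 to 18030300, with 95.6, 62.6, 79.6 and 74.95 points over 3 windows.

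At the chromosome starts, 6 of the 11 chromosomes had a region within 10 kb of their first listed window, and 0 had one as near to the last listed window. For chromosome 8 that last window was set by the end of the *ta2* CR table, so its chromosome end was not examined. Over whole chromosomes, the regions numbered from 4.01 per Mb on chromosome 3 to 6.69 per Mb on chromosome 6. The number of common gains as near to a start or an end is not given here, and the contrast was not tested. On chromosome 4, the region from 1501 to 2900 had means of 88.8, 93.5, 88.3 and 91.6 points. Chromosome 8 from 701 to 2300 had 88.8, 85.5, 87.8 and 86.5 points, and chromosome 10 from 8001 to 9900 had 79.4, 85.1, 81.6 and 87.0 points. Chromosome 2 from 1 to 1200 was the weakest, with 60.7, 67.4, 62.1 and 65.4 points over 3 windows. Chromosome 1 from 301 to 2000 had 73.5, 85.5, 73.5 and 86.7 points, and chromosome 7 from 501 to 2100 had 77.0, 79.3, 73.0 and 86.0 points. At 5 of the 6, both LR values exceeded both CR values, and on chromosome 8 both CR values were the higher.

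Genes could be placed only in part. For 1997 genes, the part of the study's gene list that was read gives a promoter bin of 200 bp, which the study had chosen for its relation to transcription. In 8 of them the bin lay whole in windows above 50 points in every table, and the list is neither complete nor a random sample, so no share was read from this. The strongest was LOC_Os01g05810, with 5 windows on chromosome 1 from 2774701 to 2776100 and means of 79.2 points for CR and 90.9 points for LR in *ta2*, and of 80.1 points for CR and 90.8 points for LR in *OxDRM2*. Here both mutants had close values and LR stood above CR. LOC_Os03g27090 had 6 windows on chromosome 3 from 15510001 to 15511500, with 66.0, 66.1, 61.3 and 74.5 points in the same order. LOC_Os03g48540 had 4 windows from 27667201 to 27668500, with 67.9, 74.7, 53.7 and 84.5 points, and its *OxDRM2* values were the most different between root types among those with several windows. LOC_Os06g40490, with 3 windows on chromosome 6 from 24126601 to 24127800, had 66.0, 73.4, 59.5 and 60.8 points, and both *ta2* values were above both *OxDRM2* values. LOC_Os01g41980 had 3 windows on chromosome 1 from 23804801 to 23806100, with 56.9, 56.5, 55.3 and 61.4 points. The other 3 loci had 1 window each. These were LOC_Os08g07380 with 61.7, 67.2, 60.7 and 55.2 points, LOC_Os01g67910 with 59.9, 56.6, 59.0 and 75.3 points, and LOC_Os03g45930 with 53.8, 61.4, 59.8 and 83.9 points. No name or role is given for these 8 loci in the sources used here. Of 35 genes of DNA methylation and root initiation that were listed for this purpose, 1 has a bin in the part read, *RDR2*, an RNA-dependent RNA polymerase of the small RNA pathway, and 0 of its windows were above 50 points in all tables.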

How the data were processed

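BS-seq libraries of *ta2* and *OxDRM2* were made from CR and LR initials of stage 1, with 2 replicates each. RNA-seq samples were not used. The authors used BS-Seeker2 (v2.1.8) for mapping clean reads, with RGAP version 7.0 as the genome, and uniquely mapped reads without duplicates were kept. The deposited tables hold, per window, a p-value, a q-value and a CHH difference in percentage points. The submitters' processing notes name methylKit among the tools, and the order of the 7 columns is that of its output, in which the difference is treatment minus control. The sign is not written in the tables. The p-values were not used as results. Windows were checked to be 1000 bp wide on a grid of 100 bp, with a difference of at least 10 points and a q-value under 0.01, whereas the Methods describe windows of 50 bp. Columns of comparisons only are given, and no value per replicate, so no test was run. The study lists mapped reads per library, which were unequal, and the tables give no depth per window.

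Positions above 50 points in all 4 tables were joined by chromosome and start and merged where they overlapped or touched. All positions up to the last listed one of each chromosome were counted as background, without chromosome 9 and chromosome 8 past 23670800. Regions to be named were the 10 longest, the 10 of at least 3 windows with the highest lowest mean, the extremes by genotype and by root type, and those within 10 kb of the first or last listed window, and genes to be named were those whose promoter bin lay whole in a qualifying window. The chromosome of a promoter bin was taken from its locus ID. The members and lists were chosen with earlier results of these data known. Other limits, other merging, windows that do not overlap, regions counted once and the removal of chromosome 6 were tried. Finding and merging were tested on simulated data. The gene table at hand is of another assembly, so its coordinates were not used, and sequences were not analysed here. Tables were handled with pandas 2.3.3 and numpy 2.4.6 under Python 3.11.15, and plots were drawn with matplotlib 3.10.9.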

Additional observations from a re-analysis of the deposited data

How the results depend on the processing

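A median was taken to have moved where it shifted by over 2 points, and a count where it changed by over 1.5 times. The 7896 windows, 1764 regions and 2439.9 kb became 16223 windows, 3454 regions and 4861 kb with a limit of 40 points, 3771 windows, 899 regions and 1211.8 kb with 60 points, and 760 windows, 177 regions and 240.7 kb with 80 points. Above 50 points in both *ta2* tables and either *OxDRM2* table, there were 12222 windows, 2669 regions and 3723.6 kb. Taking windows that do not overlap left 1839 windows, and regions of at least 3 windows numbered 1039. These changes follow from the construction of each setting. With CR and LR of *ta2* first and CR and LR of *OxDRM2* after them, the medians were 58.2, 64.0, 53.6 and 62.4 points with a limit of 40, 76.6, 81.3, 72.2 and 80.4 points with a limit of 60, 64.7, 70.5, 58.9 and 68.5 points for windows that do not overlap, and 65.2, 71.0, 60.2 and 69.0 points with each region counted once. In the last pair of settings, regions of many windows count for less than among all windows. The 178 regions of 10 windows in a row had median means of 71.0, 77.3, 65.8 and 75.7 points in the same order. Their part in the shift was not tested. The order of the 4 medians was the same in each of these settings. The 4 medians between tables kept their sign and moved by less than 2 points with limits of 40 and 60 points, without overlap, by region and without chromosome 6. Without the *ta2* CR table in the rule, or with windows within 1000 bp merged, the counts stayed within 1.5 times.

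No paired analysis was possible because the tables hold no values per replicate, and for the same reason no replicate was left out. Small differences, chromosome 9, the end of chromosome 8 and the depth of single windows are beyond what these tables show.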
